A study of Mus musculus with 6 samples.

Results

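The Notch receptors, ligands and targets of the mouse incisor were 10 genes, chosen by name from the 19270 genes of the deposited table, and all 10 were listed there: the receptors *Notch1*, *Notch2* and *Notch3*, the ligands *Jag1*, *Jag2*, *Dll1* and *Dll4*, and the target genes *Hes1*, *Hey1* and *Heyl*. RNA from the proximal region of the incisor, the growing end where mesenchymal stem cells (MSCs) reside, was sequenced from 3 control and 3 *Arid1b* mutant samples. The mutants carried Gli1-CreER and 2 floxed *Arid1b* alleles (Gli1-CreER;Arid1bfl/fl). Both groups received tamoxifen at 1 month of age and were collected 4 days after induction. The labels give the control genotype as wild type, and the methods describe tamoxifen-treated Arid1b fl/fl mice. Recombination by Gli1-CreER is limited to the GLI1+ lineage, which per the study includes both mesenchymal and epithelial cells. The labels do not say whether 1 animal or several gave each sample.

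Notch signaling passes between touching cells. A Jagged or Delta ligand on 1 cell binds a Notch receptor on its neighbour, the receptor is cut, and its inner part enters the nucleus, where it joins RBPJ and Mastermind-like proteins and switches on repressor genes of the *Hes* and *Hey* families. In the continuously growing incisor, *Notch1* is known from the stratum intermedium, the epithelial layer next to the ameloblasts. In vessels, *Notch1*, *Notch4* and *Dll4* are known from endothelium and *Notch3* and *Heyl* from pericytes and smooth muscle.

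The table holds 1 mean of normalized signal per gene and group, and a gene's values in single libraries were not used here. Every value below is therefore the authors' group mean, without a spread between samples, and no test across samples was run. The intervals given with log2 ratios are 95% exact Clopper-Pearson intervals of the share of reads, which cover counting error only. They rest on reads estimated from the lowest values of the libraries, and the libraries would have held between 37123643 and 49594469 reads. The 10 Notch genes rested on 2718 (*Dll4* in mutants) to 42247 (*Notch2* in controls) estimated reads per group. The targeted gene *Arid1b* had a control mean of 97.6 and a mutant mean of 38.0 (log2 ratio -1.36). The groups also differed in sex-linked RNA. The Y-linked *Ddx3y* was listed at the lowest control mean and at 65.3 in the mutants, at least 631-fold higher against a floor of 3 reads per library, and *Xist* had means of 3368 and 813.8. Sex and genotype cannot be told apart in any value below.

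In whole tissue, fewer cells of a type and less RNA per cell cannot be told apart. The study's methods used a fold of 1.5 together with a limit on the false discovery rate, and only the fold was applied here. None of the 10 Notch genes differed by more than 1.5-fold between the group means. A difference of that size was found for 13.2% of all 19270 genes and for 3.06% of the 10311 genes whose mean over both groups was 10 or more, called well-covered genes below, among which all 10 lie. At a fold over 5/4, 5 of the 10 passed, *Notch1* and *Jag1* higher and *Notch2*, *Dll1* and *Heyl* lower in the mutants. Which genes passed depended on how the groups were scaled, as given in the last section. Of the well-covered genes, 9.44% passed the same fold, 5.11% higher and 4.33% lower in the mutants. The genes were proposed with results of these data known, so their count is a description. Their median log2 ratio was -0.15, beside 0.0022 over all genes, with both directions present among receptors, ligands and targets.

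The upstream sequences of 2 genes with higher means and 2 genes with lower means in the mutants are shown first, since the HES and HEY repressors that Notch switches on are known to act through such boxes near gene starts. They come from RefSeq on GRCm38.p6, 5′ to 3′ along the gene, and hold no base of an annotated exon. Capitals mark the letters CACGNG and CACNAG, the class of E box and the N box known to be bound by HES proteins, on either strand. The letters CACGAG match both motifs.

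*Notch1*, chr2:26503825-26504072, minus strand: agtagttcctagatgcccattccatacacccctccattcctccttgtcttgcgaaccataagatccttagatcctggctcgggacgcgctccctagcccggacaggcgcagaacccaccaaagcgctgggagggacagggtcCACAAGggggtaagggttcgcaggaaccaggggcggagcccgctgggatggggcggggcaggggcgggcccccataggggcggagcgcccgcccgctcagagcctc

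*Jag1*, chr2:137116645-137116770, minus strand: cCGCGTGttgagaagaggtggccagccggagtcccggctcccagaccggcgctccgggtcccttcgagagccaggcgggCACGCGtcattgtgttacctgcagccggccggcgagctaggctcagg

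*Notch2*, chr3:98013288-98013526, plus strand: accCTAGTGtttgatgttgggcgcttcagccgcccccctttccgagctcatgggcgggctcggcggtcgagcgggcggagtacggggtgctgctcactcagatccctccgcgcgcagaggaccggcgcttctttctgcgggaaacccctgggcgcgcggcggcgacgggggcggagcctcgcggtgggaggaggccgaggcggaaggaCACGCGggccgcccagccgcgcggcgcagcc

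*Notch3*, chr17:32166891-32167140, minus strand: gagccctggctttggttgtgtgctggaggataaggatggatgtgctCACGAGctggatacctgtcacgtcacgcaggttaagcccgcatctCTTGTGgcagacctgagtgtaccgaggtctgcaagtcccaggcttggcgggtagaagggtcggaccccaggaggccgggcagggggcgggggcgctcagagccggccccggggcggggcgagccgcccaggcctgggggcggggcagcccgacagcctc

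The *Notch1* stretch of 248 bases held CACNAG once and no CACGNG, and lies within the annotated span of the gene, before an inner start. The *Jag1* stretch of 126 bases held 2 matches to CACGNG. *Notch2* held 1 match to each motif, and *Notch3* held 1 to CACGNG and 2 to CACNAG, of which the CACGAG is counted in both. RefSeq windows of 250 bases before the start were at hand for 7 of the 10 genes, in 8 windows because *Dll1* has 2 starts. CACGNG was found in 6 of the 8, those of *Dll1*, *Dll4*, *Jag1*, *Notch2* and *Notch3*, and in 23.5% of all 32851 windows. CACNAG was found in 4 of the 8 and in 36.7% of all windows. The RBPJ core TGGGAA was found in 0 of the 8 windows and in 21.6% of all. The 4 stretches shown were 66.1% to 74.1% G and C, and the windows were not matched for base composition. The shares are therefore no measure of an excess, and these letters describe the windows only. *Hes1*, *Hey1* and *Heyl* had no entry.

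The 3 receptors did not share a direction. *Notch1* (chromosome 2, 26457903 to 26516663 on GRCm38, as are all positions given here) had means of 55.9 in controls and 75.0 in mutants, a ratio of 1.34 and a log2 ratio of 0.43 (0.38 to 0.47). *Notch2* (chromosome 3, 98013527 to 98150361) had means of 364.2 in controls and 285.6 in mutants, with a log2 ratio of -0.35 (-0.37 to -0.33). *Notch3* (chromosome 17, 32120820 to 32166852) had means of 69.6 and 59.8, with a log2 ratio of -0.22 (-0.26 to -0.17). Thus *Notch1* had the higher mean in the mutants and the other two the lower. None of these intervals included 0, which speaks to counting error only. Among the well-covered genes, a larger difference in either direction was found for 5.66% against *Notch1*, 8.16% against *Notch2* and 17.0% against *Notch3*.

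The ratio of 2 genes within a group does not depend on how the means of one group were scaled against those of the other. The signal of *Notch1* was 0.153 of that of *Notch2* in the controls and 0.263 in the mutants, so this ratio was 1.71-fold higher in the mutants. The ratio of *Notch1* to *Notch3* was 1.56-fold higher, from 0.803 to 1.255. The ratio of *Notch3* to *Notch2* was 1.10-fold higher. The receptors differed mainly in *Notch1* against the other two.

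Compared per kilobase of exon, *Notch2* was the receptor with the most signal, at 33.8 in the controls and 26.5 in the mutants. *Notch3* had 8.60 and 7.39, and *Notch1* had 3.93 and 5.27. *Notch4*, an endothelial receptor outside the 10 genes, had 2.74 and 2.35. Of the summed signal per kilobase of these 4 receptors, *Notch1* made up 8.003% in controls and 12.7% in mutants, whereas *Notch2* made up 68.9% and 63.8%. The shares of *Notch3* were 17.5% and 17.8%. The order *Notch2*, *Notch3*, *Notch1*, *Notch4* was the same in both groups with the length of all exons joined. With the longest coding transcript as the length, *Notch1* (7.91) stood above *Notch3* (7.46) in the mutants, so the order of these 2 neighbours in the mutants depends on the length used.

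**Figure D1:**
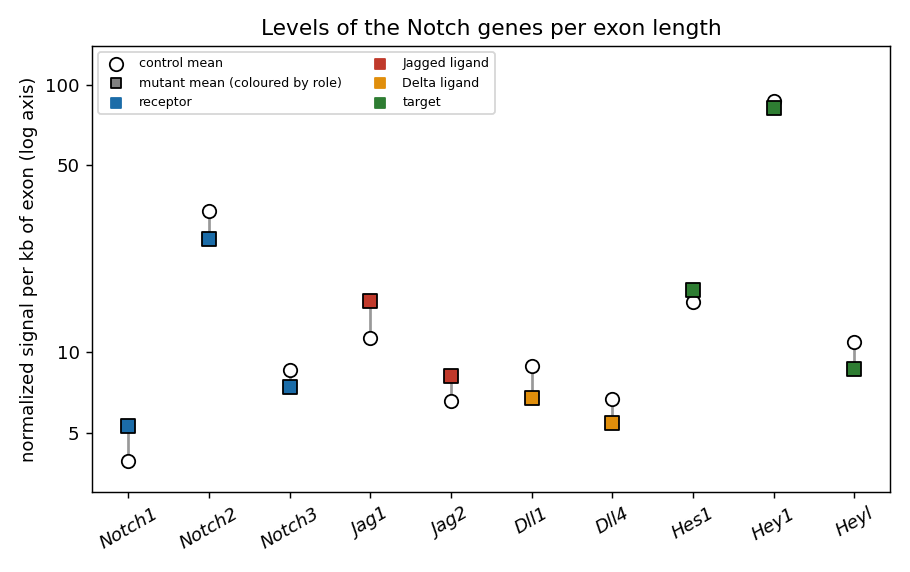
Normalized signal per kilobase of exon on a log axis for the 10 Notch genes, with the control mean as an open circle and the mutant mean as a square coloured by role, without error bars because each is 1 group mean. *Hey1* and *Notch2* have the most signal in both groups, and the squares lie above the circles for *Notch1*, *Jag1*, *Jag2* and *Hes1* only.

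The ligands split by family. Jagged and Delta ligands bind the same receptors, and Jagged proteins differ by a cysteine-rich region near the membrane. *Jag1* (chromosome 2, 137081456 to 137116644) had means of 65.9 in controls and 90.3 in mutants, with a log2 ratio of 0.45 (0.41 to 0.50), the highest of the 10 genes. A larger difference than that of *Jag1* was found for 4.98% of the well-covered genes. *Jag2* (chromosome 12, 112907819 to 112929776) had means of 45.6 and 56.8, a ratio of 1.24 and a log2 ratio of 0.32 (0.26 to 0.37). It was the gene nearest to the 5/4 limit from below, and 9.64% of the well-covered genes differed more. Both Jagged ligands were thus higher in the mutants.

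*Dll1* (chromosome 17, 15367354 to 15376872) had means of 37.4 in controls and 28.5 in mutants, with a log2 ratio of -0.39 (-0.45 to -0.33), the lowest of the 10 genes. *Dll4* (chromosome 2, 119325784 to 119335962), the ligand of sprouting and arterial endothelium, had means of 25.7 and 20.9, with a log2 ratio of -0.30 (-0.37 to -0.22). Both Delta ligands had the lower mean in mutants, with 6.69% of the well-covered genes differing more than *Dll1* and 10.7% more than *Dll4*, which did not pass a fold of 5/4. The *Dll1* value is uncertain, because 20.5% of its exon length is shared with the opposite-strand transcript *A930024N18Rik*, and whether reads were counted by strand is not given in the sources used here. *Notch1* shares 7.50% of its exon length with an opposite-strand transcript and 2.91% with another. *Notch3* shares 6.03% and *Dll4* 5.56% with an opposite-strand transcript, and *Notch2* shares 5.02% with a transcript of the same strand. Those of the overlapping transcripts that are in the table had means of at most 1.91.

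The ratio of *Jag1* to *Dll1* was 1.76 in the controls and 3.16 in the mutants, 1.80-fold higher. The other 3 ratios of a Jagged to a Delta ligand were 1.53-fold to 1.68-fold higher in the mutants. Within a family the ratios stayed closer, at 1.10-fold for *Jag1* to *Jag2* and 0.937-fold for *Dll1* to *Dll4*. Per kilobase of exon, *Jag1* made up 33.9% of the signal of the 4 ligands in the controls and 43.2% in the mutants. *Jag2* made up 19.6% and 22.7%. *Dll1* made up 26.6% in controls and 18.9% in mutants, and *Dll4* made up 20.0% and 15.2%. The summed signal per kilobase of the 4 ligands was 33.4 in the controls and 35.8 in the mutants. The total of the ligands thus differed less than their makeup.

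**Figure D2:**
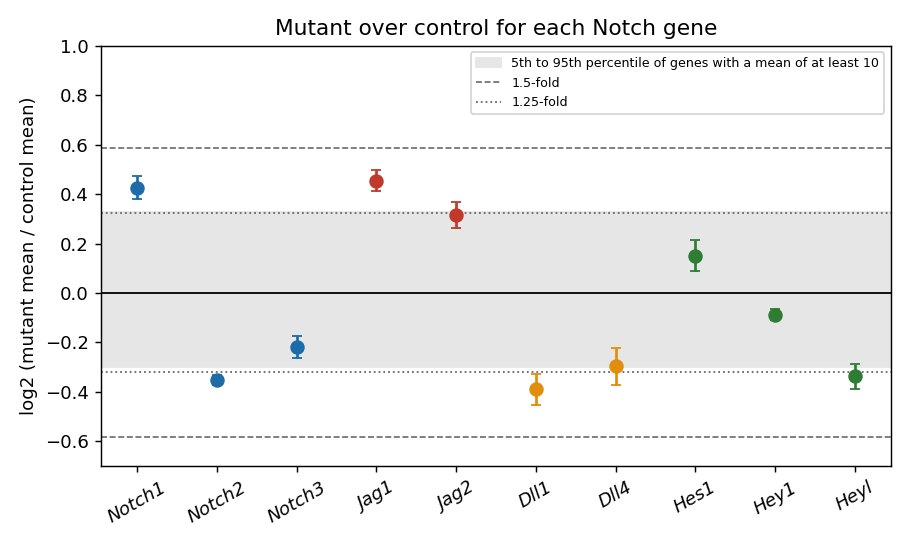
Log2 ratio of the mutant mean to the control mean for each Notch gene, coloured by role, with bars for the 95% interval of counting error only, which leaves out the spread between samples. The grey band runs from the 5th to the 95th percentile of the well-covered genes (-0.30 to 0.33); *Notch1* and *Jag1* lie above it, and *Notch2*, *Dll1* and *Heyl* lie below it.

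The targets also split. *Hes1* (chromosome 16, 30064384 to 30067796), a repressor that holds progenitors undifferentiated in many tissues, had means of 31.4 in controls and 34.8 in mutants, with a log2 ratio of 0.15 (0.09 to 0.21). *Hey1* (chromosome 3, 8663359 to 8667256) had means of 285.0 and 268.3, with a log2 ratio of -0.09 (-0.11 to -0.07). Of the well-covered genes, 27.9% differed more than *Hes1* and 48.3% more than *Hey1*, so both lay within the common range. *Heyl* (chromosome 4, 123233556 to 123249875) had means of 56.0 and 44.3, with a log2 ratio of -0.34 (-0.39 to -0.29), and 8.69% of genes differed more.

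*Hey1* had the most signal per kilobase of all 10 genes, with 87.3 in the controls and 82.2 in the mutants. *Hes1* followed among the targets with 15.4 and 17.1, and *Heyl* had 10.9 and 8.66. *Hey1* made up 76.8% of the signal per kilobase of the 3 targets in the controls and 76.1% in the mutants. The ratio of *Hes1* to *Heyl* was 1.40-fold higher in the mutants, from 0.561 to 0.786. The ratio of *Hes1* to *Hey1* was 1.18-fold higher, from 0.110 to 0.130.

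The other genes of the pathway were taken from a list of 45, of which 42 were in the table and *Dll3*, *Hes2* and *Hes3* were not listed. Of the 42, 24 had the higher mean in mutants and 18 the lower, and their median log2 ratio was 0.01. Only *Dlk2* passed the 1.5-fold threshold, which 13.2% of all genes passed, and 5 genes were higher and 1 lower by a fold over 5/4. That fold was passed by 26.5% of all genes, 13.6% higher and 12.8% lower in the mutants. Of the 32 pathway genes that were well covered, 5 passed it, beside 9.44% of all well-covered genes. *Dlk2* and its relative *Dlk1* encode Delta-like membrane proteins without the domain by which Delta and Jagged ligands bind Notch. *Dlk2* had low means, 0.883 for controls and 2.14 for mutants, on about 99 and 275 estimated reads, with a log2 ratio of 1.28 (0.97 to 1.66). *Dlk1* is an imprinted gene and had means of 52.1 and 77.4, a ratio of 1.49. *Notch4* had the lowest log2 ratio of the further receptor and ligands at -0.22 (-0.30 to -0.14), with means of 22.1 and 19.0.

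The machinery that modifies and cuts the receptor had log2 ratios between -0.22 and 0.25. The 5 sugar transferases, which glycosylate the receptor, had log2 ratios from -0.13 for *Rfng* to 0.03 for *Poglut1*. The 10 proteases and secretase subunits that cleave it had log2 ratios from -0.22 for *Aph1b* to 0.25 for *Psen2*, with 5 higher and 5 lower. *Aph1b* has the close copy *Aph1c*, between which reads may have been split. None of these 15 genes passed a fold of 5/4, which 26.5% of all genes passed. Of the well-covered genes, 16.9% differed more than *Aph1b* and 14.0% more than *Psen2*, beside 17.0% for *Notch3*. In the nuclear complex, log2 ratios ran from -0.20 for *Maml2* to 0.03 for *Snw1*, and the DNA-binding partner *Rbpj* had means of 121.3 and 121.4.

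The 12 ubiquitin ligases and trafficking genes held 1 gene past a fold of 5/4 in each direction, beside 26.5% of all genes past it in either direction. *Mib1*, which ubiquitinates Notch ligands so that they can be taken up and activate the receptor, had control and mutant means of 468.4 and 354.7, with a log2 ratio of -0.40 (-0.42 to -0.38). *Dtx4*, a Deltex ligase acting on the receptor, had means of 12.4 and 17.0, with a log2 ratio of 0.46 (0.36 to 0.56). Among further targets and relatives, all 5 in the table were higher in the mutants, from 0.03 for *Hey2* to 0.44 (0.36 to 0.52) for *Nrarp*. *Nrarp*, a Notch target that feeds back on the receptor's nuclear complex, had means of 17.5 and 23.7. The intervals of *Hey2*, *Hes5*, *Hes6* and *Hes7* included 0, so the log2 ratios of these 4 lay within counting error.

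The dissected region holds several cell types. The tissue was dissected as mesenchyme, yet dental epithelium markers were present in both groups, 11 of the 12 with the higher mean in mutants. Their median log2 ratio was 1.08, and their signal summed to 1751 in controls and 10575 in mutants. *Amelx*, encoding the enamel protein amelogenin and the most abundant of them over the mean of both groups, had means of 361.9 and 3946. Together with *Ambn* (617.4 and 3360) and *Enam* (135.8 and 1983), it made up most of the mutant sum. The other markers of this list had log2 ratios of at most 1.23. *Notch1*, *Jag1*, *Jag2* and *Hes1* were higher in the same mutant means, by 1.11-fold to 1.37-fold. Of 5 genes of cycling cells, all 5 were higher, with a median of 0.37 and sums of 380.0 and 476.0. The part of either list in the values of the Notch genes was not tested.

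The 10 pan-endothelial markers had a median log2 ratio of 0.0045, none passed a fold of 5/4, and *Cdh5* had means of 95.2 and 94.4. Of 6 arterial markers, 5 had the lower mean in mutants and the median was -0.19, beside *Dll4* at -0.30 and *Notch4* at -0.22. The arterial list summed to 544.2 in controls and 492.6 in mutants. Its most abundant marker *Unc5b* had means of 424.8 and 376.1 and made up most of both sums. These means exceeded those of *Cdh5*, the highest of the pan-endothelial markers. The sum may therefore include signal from cells other than arterial endothelium. The 10 perivascular and smooth muscle markers were split, with 5 higher and 5 lower, sums of 920.9 and 847.4 and a range from -0.96 to 1.13. The 5 with the lower mean in mutants were *Rgs5*, *Abcc9*, *Kcnj8*, *Cspg4* and *Pdgfrb*, with log2 ratios from -0.96 for *Kcnj8* to -0.17 for *Cspg4*. The 5 with the higher mean were *Mcam*, *Acta2*, *Myh11*, *Tagln* and *Cnn1*, with log2 ratios from 0.18 for *Mcam* and *Myh11* to 1.13 for *Cnn1*. The most abundant, *Rgs5*, had means of 411.0 and 340.1 (log2 ratio -0.27). *Notch3* at -0.22 and *Heyl* at -0.34 thus stood beside markers of both directions. Of 10 markers of dental mesenchyme, 8 were lower, with a median of -0.21 and sums of 24753 and 20741. Most of these sums was *Col1a1*, at 21211 and 17127. The 2 genes with the higher mean were *Igfbp6* and *Col3a1*. *Igfbp6*, which the study names as a marker of MSCs, had low means of 6.045 and 9.60, with a log2 ratio of 0.67. That of *Col3a1* was 0.31. *Gli1* had the lowest log2 ratio of the list at -1.21, with means of 106.4 and 46.1. The mutants carried Gli1-CreER, and an effect of that allele on *Gli1* RNA was not tested. All 4 odontoblast markers were lower, with a median of -0.37 and sums of 6364 and 5053. No marker of these lists lay at or under the value of 3 reads per library. The part of these lists in the values of the Notch genes was not tested.

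**Figure D3:**
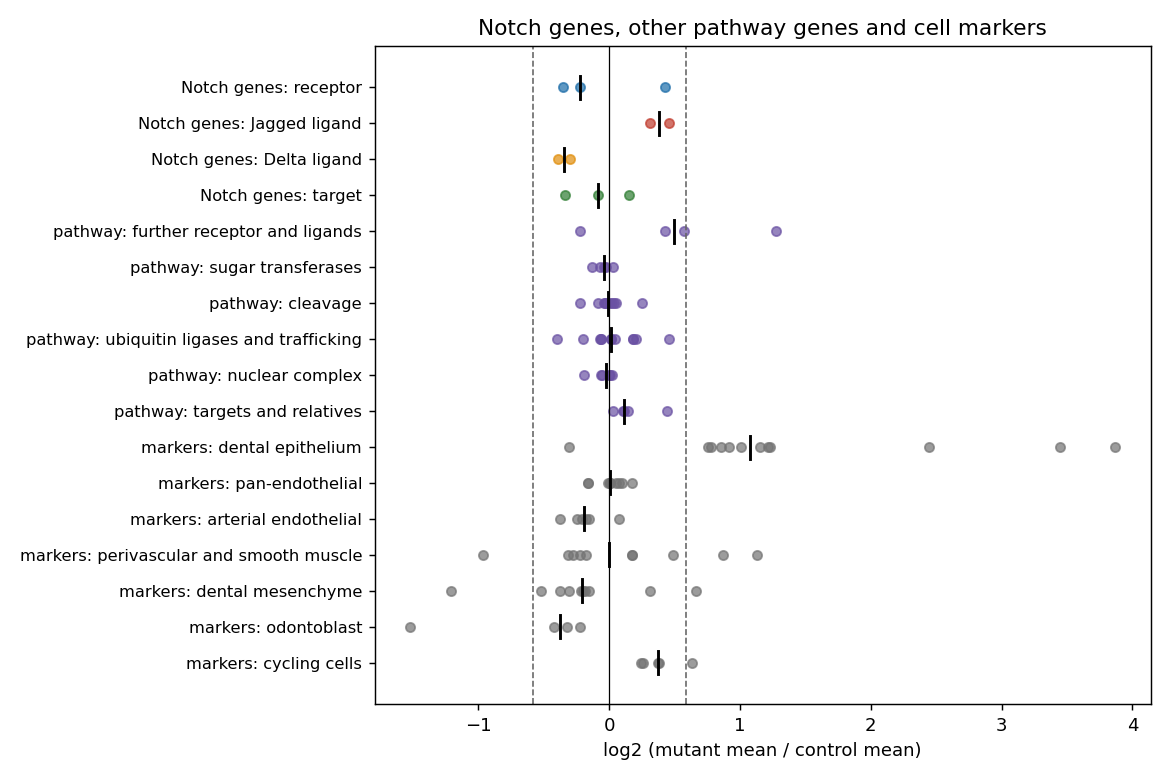
Log2 ratio of the mutant mean to the control mean (horizontal axis), 1 point per gene. Rows are the Notch families, the other pathway genes by role and lists of cell markers. The marker lists drawn are dental epithelium, pan-endothelial, arterial endothelial, perivascular and smooth muscle, dental mesenchyme, odontoblast and cycling cells. Macrophage, glia, skeletal muscle and erythroid markers are not drawn. A black bar marks each list's median, and dashed lines mark 1.5-fold. The Notch genes lie between -0.39 and 0.45, inside the dashed lines, whereas 11 of the 12 dental epithelium markers lie to the right of them.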

How the data were processed

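Per the methods, trimming, alignment to mm10 and the comparison were run by the authors in Partek Flow, and the submitters' processing notes name TopHat2 2.0.8. The counting of reads, its use of strand and the annotation are not given in the sources used here. The deposited signal is a mean per gene and group of normalized values. Group averages over all genes equal the averages of the library means (53.05 and 50.87), so the deposited signal is an arithmetic mean, and upper quartiles of the 6 libraries lay between 44.57 and 44.58.

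The lowest signal of each library was taken as the value of 1 read added to the count. This is an inference, since 59.6% of low control means and 48.5% of low mutant means fell on whole reads within 2e-05, so reads may have been split between genes. From it, reads behind each mean and exact Clopper-Pearson intervals were computed, and checked on simulated data.

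The 4 columns of the authors' own comparison (p-value, false discovery rate, ratio and signed fold change) and the filtered table of genes passing it were not used, nor were 2 numeric columns of the library summary. Log2 ratios are those of the 2 group means, mutant over control. With group means only, no test was run and genes past 1.5-fold were counted. Exon lengths and positions were taken from the GENCODE vM21 annotation (GRCm38, that is mm10). Members and lists were chosen with earlier results of these data known. Named genes were the 10 members, pathway genes past 1.5-fold, the highest and lowest of each role among the rest, the most abundant epithelial, endothelial and perivascular markers, *Arid1b*, *Ddx3y* and *Xist*. *Dll3*, *Hes2*, *Hes3*, *Rbpj*, the perivascular markers other than *Rgs5*, *Hes5*, *Hes6*, *Hes7*, *Aph1c*, *Ambn*, *Enam*, *Gli1*, *Col1a1* and *A930024N18Rik* were named after their values were seen. So were *Igfbp6* and *Col3a1*. Values were computed with Python 3.11.15 (scipy 1.17.1, pandas 2.3.3, numpy 2.4.6) and plotted with matplotlib 3.10.9.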

Additional observations from a re-analysis of the deposited data

How the results depend on the processing

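With group means only, neither leaving out a library nor the spread between samples could be computed, and the depth limits low genes such as *Hes5* and *Hes7*. No paired analysis was possible because only group means per gene were analysed here. The count of Notch genes past the fold threshold was 0 under each alternative except a fold over 5/4, where it was 5. Rescaled values were counted at 1.5-fold only. For the 42 other pathway genes the count of 1 became 6 at a fold over 5/4, 2 with both groups at the same total and 0 when genes averaging under 10 were left out. The median log2 ratio of the Notch genes, -0.15, became -0.093 with both groups at the same total and -0.034 as a mean. That of the other pathway genes became 0.071 and 0.063 under these alternatives. Equal totals add 0.061 to every log2 ratio. At a fold over 5/4 with equal totals, *Notch2* (-0.29) and *Heyl* (-0.28) would no longer pass and *Jag2* (0.38) would. Equal totals, centring and a pseudocount of 1 left the sign of each Notch gene's log2 ratio as it was (0 of 30 values changed sign), with the largest move 0.061. Of 65 alternative values of the 11 marker lists, filters on low means and the mean included, 8 changed sign, all in the perivascular, glia and skeletal muscle lists. The medians of glia, skeletal muscle, erythroid and macrophage markers were -0.09, -0.01, -1.53 and 0.16. All 5 erythroid markers had the lower mean in mutants, with sums of 63.7 in controls and 22.1 in mutants. With the longest coding transcript as the exon length, an alternative added after the data were seen, *Notch1* made up 11.2% of the receptor signal per kilobase in the controls and 17.4% in the mutants.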
